A study of Homo sapiens with 6 samples.

Results

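Mucins are large glycoproteins that cover epithelial surfaces, and TFF3 is the trefoil peptide that intestinal goblet cells secrete with them. The 10 genes described here were MUC1, MUC2, MUC4, MUC5AC, MUC5B, MUC12, MUC13, MUC17, MUC20 and TFF3, taken by their Ensembl identifiers from a table of 60240 genes. All 10 were present in the table. Their levels were measured by RNA-seq in HCT116, an established human colorectal carcinoma cell line, and compared between 3 wild type (WT) and 3 LSD1 knockout (LSD1 KO) libraries. LSD1, encoded by KDM1A, is a histone demethylase that removes methyl groups from lysine residues of histone H3. The knockout was made with a CRISPR/Cas9 guide against the first exon of LSD1, after which puromycin-resistant clones were expanded, and the WT cells are described only as wild-type. Both groups were HCT116 cells given the growth conditions described for this line. The paper describes its experiments as done with biological replicates unless otherwise specified. The number of clones behind the 3 LSD1 KO libraries is not given in the sources used here. The spread between libraries may still be technical. An effect of the genotype cannot be told apart from an effect of a clone.

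The mucins described here are of 2 kinds. Secreted gel-forming mucins polymerise into mucus through cysteine-rich domains, and membrane mucins are anchored in the apical surface and form the glycocalyx. In the colon the gel is made by goblet cells, which release MUC2 together with TFF3, and the membrane mucins MUC12, MUC13 and MUC17 are carried by the cells that line the surface. Of the genes described here 3 were gel-forming mucins (MUC2, MUC5AC and MUC5B), 6 were membrane mucins (MUC1, MUC4, MUC12, MUC13, MUC17 and MUC20), and TFF3 stood alone as a trefoil factor.

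Several of these genes lie side by side. By the RefSeq annotation of GRCh38.p14, MUC2 (chr11:1074874-1110508), MUC5AC (chr11:1157953-1201138) and MUC5B (chr11:1223066-1262172) follow MUC6 on chromosome 11. MUC20 (chr3:195720978-195733551) and MUC4 (chr3:195746771-195811929) are neighbours on chromosome 3, where MUC13 (chr3:124905442-124934751) lies apart from them. MUC12 (chr7:100969565-101018936) and MUC17 (chr7:101020081-101058859) follow MUC3A on chromosome 7. MUC1 (chr1:155185824-155192915) and TFF3 (chr21:42311667-42315409) stand alone among the members on their chromosomes.

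Sequence before the start of the gene is shown for 4 of these genes, to set a mucin with counts beside its neighbour at the floor (MUC12 and MUC17), with the member of highest mean level over the 6 libraries (MUC1) and the goblet cell gel former (MUC2). Each is the 250 bases before the RefSeq start on GRCh38.p14, read 5′ to 3′ on the strand of the gene, with CpG dinucleotides in capitals. The windows are chr1:155192916-155193165 on the minus strand for MUC1, and chr11:1074624-1074873, chr7:100969315-100969564 and chr7:101019831-101020080 on the plus strand for MUC2, MUC12 and MUC17.
MUC1: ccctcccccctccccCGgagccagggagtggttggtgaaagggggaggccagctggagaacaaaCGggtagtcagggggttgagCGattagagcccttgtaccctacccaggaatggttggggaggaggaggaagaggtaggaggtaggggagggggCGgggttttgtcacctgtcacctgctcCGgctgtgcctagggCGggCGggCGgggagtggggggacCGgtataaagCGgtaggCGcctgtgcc
MUC2: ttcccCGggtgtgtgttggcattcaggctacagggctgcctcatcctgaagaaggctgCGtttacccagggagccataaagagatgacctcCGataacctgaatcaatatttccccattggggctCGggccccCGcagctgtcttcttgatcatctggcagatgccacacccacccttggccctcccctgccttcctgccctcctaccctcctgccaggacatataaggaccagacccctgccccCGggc
MUC12: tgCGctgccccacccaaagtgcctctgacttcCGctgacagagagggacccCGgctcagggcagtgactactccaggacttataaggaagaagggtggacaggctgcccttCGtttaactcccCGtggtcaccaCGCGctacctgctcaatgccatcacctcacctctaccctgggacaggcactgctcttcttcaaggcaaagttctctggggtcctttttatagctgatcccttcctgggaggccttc
MUC17: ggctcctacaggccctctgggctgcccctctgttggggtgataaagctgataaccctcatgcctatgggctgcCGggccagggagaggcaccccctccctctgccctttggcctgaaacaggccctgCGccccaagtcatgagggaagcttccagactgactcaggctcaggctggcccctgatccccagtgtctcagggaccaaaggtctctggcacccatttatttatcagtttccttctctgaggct
The MUC1 window held 11 CpG dinucleotides, the MUC2 window 6, the MUC12 window 7 and the MUC17 window 2, and G and C made up 66.0% of the MUC1 window and 57.6% of the MUC12 window. The median over 35116 RefSeq promoters of the same length was 11 CpG dinucleotides and 58.0% G and C. Among those promoters 14.7% held fewer CpG dinucleotides than MUC17 and 49.7% fewer than MUC1. All motifs were searched on both strands, with overlapping matches counted. The letters GGGCGG, a GC box, occurred 4 times before MUC1 and were not found in the other windows shown, and 42.6% of all promoters held them. The letters TATAAA occurred once before MUC1 on the strand shown and once before MUC12 on the other strand, as they did on either strand in 10.7% of all promoters. The letters CAGGTG, an E-box bound by SNAI and ZEB repressors that can recruit LSD1, occurred 2 times before MUC1, both on the strand not shown, and in no other window shown, against 17.5% of all promoters. The core AAATCAC of the repressor GFI1, which also recruits LSD1, was not found in any window shown and was present in 2.74% of all promoters. These matches describe letters in a window and were not tested as binding sites. Windows were matched for 6 of the 10 genes, with MUC4 and MUC13 besides those shown, and not for MUC5AC, MUC5B, MUC20 and TFF3.

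The libraries held between 25379279 and 29186963 counts, and levels are given as CPM, the count divided by that total and scaled up alike in every library. The floor was set at 3 counts per library, 0.103 to 0.118 CPM, which covers counting error only. KDM1A, the targeted gene, had 6119, 5927 and 6451 counts in WT libraries 1, 2 and 3 and 837, 749 and 734 in LSD1 KO libraries, so the labels held and reads of the gene remained (log2 fold change -2.97, q = 0.000451, edgeR). It was the 1 gene of 17672 tested with a q value under 0.1 (0.00566%) in the edgeR fit without the replicate number. With the replicate number as a block, 282 genes (1.6%) passed, and with DESeq2 95 of 25656 genes (0.37%). Of 8 colon epithelial markers 7 were tested, with KRT8 at 1270 ± 356 and 1093 ± 105 CPM in WT and LSD1 KO libraries and KRT19 at 831 ± 267 and 1090.2 ± 257 CPM (mean ± SD, n = 3), whereas VIL1 had 8 counts or fewer in every library. EPCAM, an adhesion molecule of epithelia, stood at 205 ± 29 CPM in WT and 104 ± 30 CPM in LSD1 KO libraries and was lower with the block (q = 0.0788) and by DESeq2 (q = 0.0516), with q = 0.668 by edgeR without the block. The summed level of the marker list ranged from 2132 to 3648 CPM in WT and from 2428 to 2995 CPM in LSD1 KO libraries.

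The 10 genes had low counts or none in HCT116 cells, and none was called different between the genotypes. Of the 10 genes, 5 had at most 3 counts in every library: MUC2, MUC5AC, MUC13, MUC17 and TFF3. The other 5, MUC1, MUC4, MUC5B, MUC12 and MUC20, had between 6 and 102 counts per library and could be tested. The floor took 2 of the 3 gel-forming mucins, 2 of the 6 membrane mucins and the trefoil factor. No gene was called: the edgeR quasi-likelihood test gave 0 of 5 at a q value under 0.1 and 0 of 5 at an unadjusted p under 0.05, which 552 of all 17672 genes (3.12%) had, and the replicate block and DESeq2 also called 0.

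**Figure D1:**
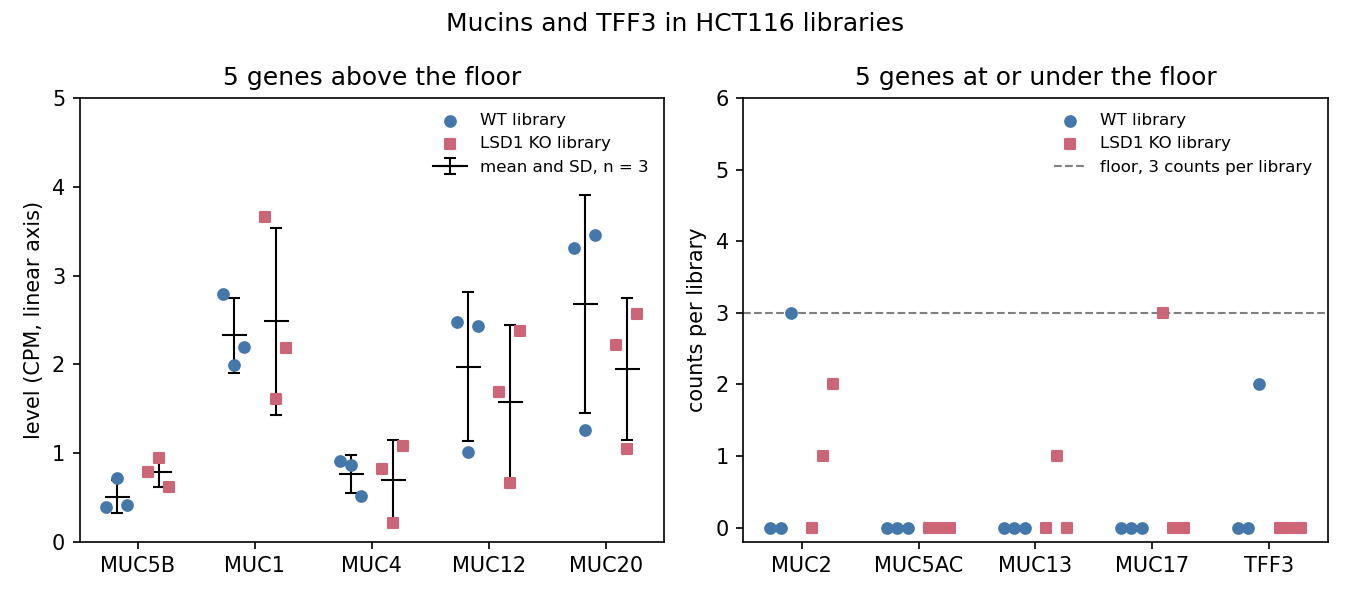
Levels in each of the 6 libraries, with the 5 genes above the floor in CPM on the left (points are libraries, black bars the mean and SD of 3) and the 5 genes at or under the floor in raw counts on the right (dashed line at 3 counts). Every gene on the left has WT and LSD1 KO values that overlap, and no value on the right is above 3 counts.

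The goblet cell pair came first by role. MUC2 (ENSG00000198788), the gel former of colonic mucus, had 0, 0 and 3 counts in WT libraries 1, 2 and 3 and 0, 1 and 2 counts in LSD1 KO libraries 1, 2 and 3. TFF3 (ENSG00000160180), which takes part in repair of the mucosa, had 0, 0 and 2 counts in the WT libraries and 0 in each LSD1 KO library. Neither gene rose above the floor in any library, and no fold change is given for them. A difference at or under the floor could not be resolved at this depth, so its absence cannot be read from these values.

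MUC5AC (ENSG00000215182), the gel former of the gastric surface and the airway, was the only one of the 10 genes with 0 counts in all 6 libraries. MUC5B (ENSG00000117983), a gel former of airway and salivary glands, had 10, 20 and 12 counts in the WT and 22, 27 and 16 in LSD1 KO libraries. That is 0.394, 0.723 and 0.411 CPM in WT and 0.789, 0.943 and 0.614 CPM in LSD1 KO cells. The lowest LSD1 KO library lay below the highest WT library, so the groups overlapped. The means were 0.509 ± 0.185 and 0.782 ± 0.164 CPM (SD, n = 3), a log2 fold change of 0.64 with a 95% interval of -0.44 to 1.71 (q = 0.999, edgeR). MUC5B had the smallest unadjusted p of the 5 genes without the replicate block (with it MUC20 had), and the interval runs from 0.740-fold to 3.28-fold. The LSD1 KO library was the higher of each same-numbered pair, by 1.00, 0.38 and 0.58 on the log2 scale of CPM, and the two-sided exact permutation test of the CPM gave p = 0.2, where 3 libraries against 3 allow no p below 0.1.

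MUC1 (ENSG00000185499) is a membrane mucin that is found on most simple epithelia and has a signalling tail. Among the membrane mucins of the set described here, MUC1 had the highest mean level over the 6 libraries, per kilobase and in CPM. In WT cells, however, MUC20 had the higher mean CPM. MUC3A, a membrane mucin outside the set, had a mean of 36.5 CPM over the 6 libraries, against 2.41 CPM for MUC1. MUC1 had 71, 55 and 64 counts in the WT and 102, 46 and 57 in LSD1 KO libraries, or 2.80, 1.99 and 2.19 CPM against 3.66, 1.61 and 2.19 CPM. The LSD1 KO values enclosed the WT values, with LSD1 KO library 1 the highest of all 6 and LSD1 KO library 2 the lowest. The log2 fold change was 0.12 (95% interval -0.71 to 0.96, q = 0.999, edgeR), and it became -0.25 without LSD1 KO replicate 1. The pairs differed by 0.39, -0.31 and -0.0032 on the log2 scale, with no common direction.

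MUC20 (ENSG00000176945), a membrane mucin that binds the receptor MET, had 84, 35 and 101 counts in the WT and 62, 30 and 67 in LSD1 KO libraries. In CPM these were 3.31, 1.27 and 3.46 against 2.22, 1.05 and 2.57, with both libraries numbered 2 far below the other libraries of their group. The means were 2.68 ± 1.23 CPM and 1.95 ± 0.799 CPM, and the log2 fold change was -0.42 (95% interval -1.47 to 0.63, q = 0.999, edgeR). The LSD1 KO library was the lower of each pair, with differences of -0.57, -0.27 and -0.43 on the log2 scale, yet with the replicate block the interval, -0.97 to 0.16, still held 0 (q = 0.536). The counts of MUC20 are uncertain, because 36.03% of the 31-base words of its annotated transcripts also occur in other genes. The overlapping gene MUC20-OT1, transcribed on the same strand, holds 27.4% of them and the pseudogene MUC20P1 14.8%. MUC20-OT1 stood at 48.8 ± 7.73 CPM in WT and 47.5 ± 4.33 CPM in LSD1 KO libraries, with a log2 fold change of -0.0045, and MUC20P1 had between 4 and 23 counts. Their part in the counts of MUC20 was not tested.

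MUC12 (ENSG00000205277), a membrane mucin of the colonic surface, had 63, 28 and 71 counts in the WT and 47, 19 and 62 in LSD1 KO libraries. This gave 2.48, 1.01 and 2.43 CPM against 1.69, 0.663 and 2.38 CPM, again with both libraries numbered 2 the lowest. The log2 fold change was -0.29 (95% interval -1.46 to 0.87, q = 0.999, edgeR), and it became 0.041 without LSD1 KO replicate 2. The pairs differed by -0.56, -0.61 and -0.032 on the log2 scale, all in the same direction, and the block gave an interval that held 0 (q = 0.659). The antisense gene MUC12-AS1, which overlaps 1.45% of its exonic bases, had 0 counts in every library, as did MUC5B-AS1 opposite MUC5B.

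MUC4 (ENSG00000145113), the membrane partner of the receptor ERBB2, had 23, 24 and 15 counts in the WT and 23, 6 and 28 in LSD1 KO libraries. Its levels were 0.906, 0.868 and 0.514 CPM in WT and 0.825, 0.210 and 1.07 CPM in LSD1 KO cells, and LSD1 KO library 2 held the lowest value while LSD1 KO library 3 held the highest. The log2 fold change of -0.11 (95% interval -1.45 to 1.24, q = 0.999, edgeR) became 0.30 without LSD1 KO replicate 2 and 0.031 without WT replicate 2. On the log2 scale MUC4 had the widest interval of the 5 genes, which in fold units runs from 0.365-fold to 2.35-fold.

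The remaining 2 of the 6 membrane mucins were at the floor. MUC13 (ENSG00000173702), a membrane mucin of the intestinal surface, had 1 count in LSD1 KO library 2 and 0 in the other 5 libraries. MUC17 (ENSG00000169876), a membrane mucin of enterocytes, had 3 counts in LSD1 KO library 1 and 0 elsewhere. Both stayed at or under the floor in all 6 libraries.

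**Figure D2:**
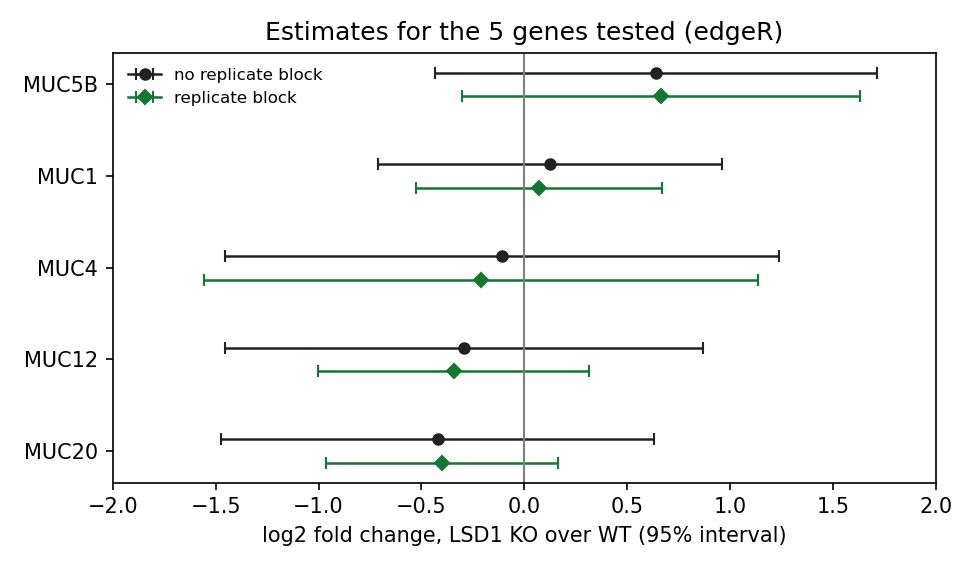
Log2 fold change of LSD1 KO over WT for the 5 genes tested, from edgeR without (circles) and with (diamonds) the replicate number as a block, with bars for the 95% interval. All 10 intervals cross 0, and the estimates run from -0.42 for MUC20 to 0.66 for MUC5B.

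The unadjusted p of the 5 genes by edgeR ranged from 0.209 for MUC5B to 0.858 for MUC4. Of their estimates 2 were above 0 (MUC1 and MUC5B) and 3 below (MUC4, MUC12 and MUC20). Their median log2 fold change was -0.11, beside 0.00082 over all 17672 genes tested. With the replicate block the median was -0.21, beside 0.0030 over all genes, and the intervals of MUC12 and MUC20 narrowed to between -1.001 and 0.32 and between -0.97 and 0.16. The groups did not overlap in 0 of the 5 genes, and in 7.72% of all genes tested. The counts of the 10 genes together were 251, 162 and 268 in the WT and 259, 130 and 232 in the LSD1 KO libraries, or 8.31 ± 2.15 and 7.58 ± 2.64 CPM (SD, n = 3), with both libraries numbered 2 the lowest.

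Because the transcripts differ in length, the levels of the 5 tested mucins were compared with each other per kilobase of the canonical transcript, which is 1811 bases for MUC1, 2493 for MUC20, 16366 for MUC12, 16756 for MUC4 and 17911 for MUC5B. On that scale the order of mean levels was MUC1, MUC20, MUC12, MUC4 and MUC5B. In WT cells MUC1 stood at 1.28 ± 0.232 CPM per kilobase, MUC20 at 1.07 ± 0.492, MUC12 at 0.121 ± 0.0510, MUC4 at 0.0455 ± 0.0129 and MUC5B at 0.0284 ± 0.0103. The library values of MUC1 and MUC20 overlapped in both genotypes, as did those of MUC4 and MUC5B. The values of MUC20 and MUC12 did not overlap in either genotype, and those of MUC12 and MUC4 overlapped in LSD1 KO cells only. In LSD1 KO cells MUC4 (0.0420 ± 0.0266 CPM per kilobase) and MUC5B (0.0437 ± 0.00918) changed places in the order of means, within their overlapping values.

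**Figure D3:**
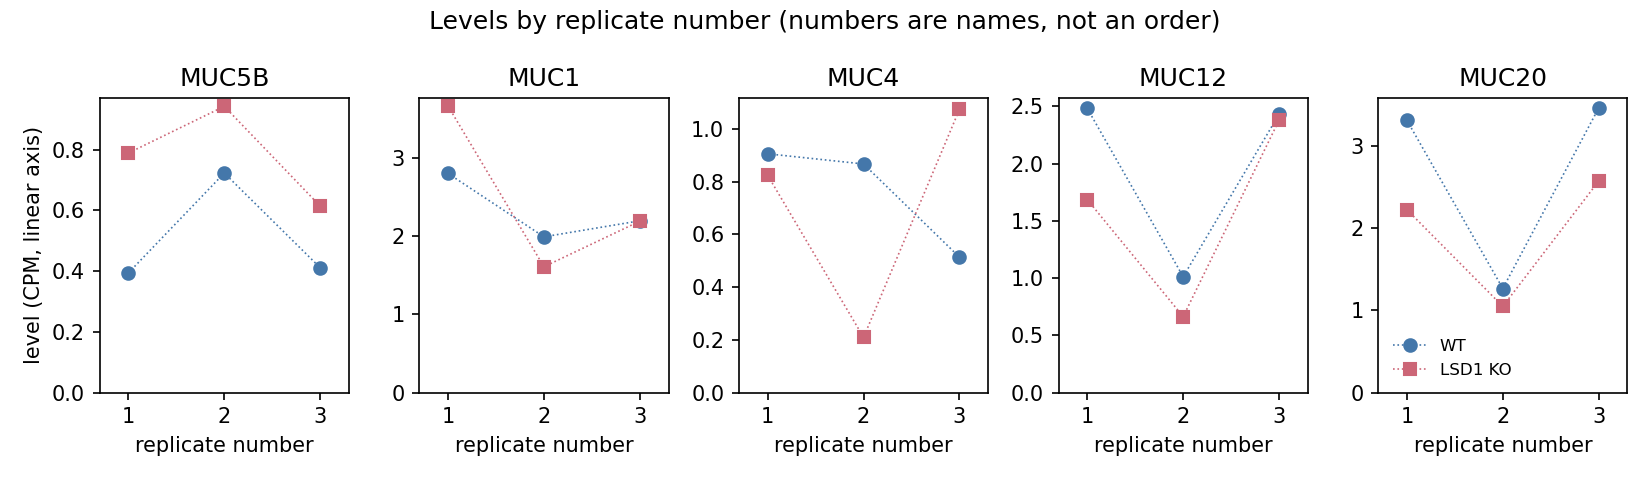
CPM of the 5 genes tested by replicate number, with circles for WT and squares for LSD1 KO libraries. The numbers are names with no order, and the dotted lines only join libraries of a genotype. MUC1, MUC12 and MUC20 are lowest in the libraries numbered 2 of both genotypes and MUC5B is highest there.

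Replicate 2 was the lowest or the highest library of both genotypes in MUC1, MUC5B, MUC12 and MUC20, and not in MUC4. MUC1, MUC12 and MUC20 were lowest in replicate 2 of both genotypes, a pattern held by 33% of all genes tested. In MUC12, replicate 2 stood at 0.412 times the mean of replicates 1 and 3 in WT cells and at 0.326 times in LSD1 KO cells. In MUC20 the ratios were 0.374 and 0.437, and in MUC1 they were 0.797 and 0.550. MUC5B went the other way and was highest in replicate 2 of both genotypes, as were 18.9% of all genes tested, with ratios of 1.80 and 1.34. MUC4 had no common direction, with ratios of 1.22 and 0.221. For MUC12 and MUC20, the gap between replicate 2 and the others was larger than the gap between the mean levels of the genotypes. These shares and ratios are of CPM without TMM scaling. The TMM factors were lowest in the libraries numbered 2, at 0.956 in WT and 0.949 in LSD1 KO cells. What sets the libraries numbered 2 apart was not tested, and the labels give them no batch.

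For correlations between genes, log2 CPM was the edgeR value, scaled by TMM with a small count added, unlike the CPM given elsewhere. On that scale MUC12 and MUC20 moved together over the 6 libraries, with a Pearson r of 0.972. Both moved against MUC5B, with r of -0.846 and -0.896. These values describe 6 libraries that share the replicate pattern above. Genes close to MUC1 were ENSG00000283633 (r of 0.999) and TMEM67 (0.994), and 268 tested genes had r above 0.9 with it. MUC5B was closest to PLAAT3 (0.992), RPL23 (0.989) and OSER1-DT (0.987), with 170 genes above 0.9.

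In the clusters of chromosomes 11 and 7, mucins at the floor lay next to mucins above it. On chromosome 11, MUC2 and MUC5AC, both at the floor, lay between MUC6, a gastric gel former with 3, 19 and 3 counts in the WT and 18, 8 and 15 in LSD1 KO libraries, and MUC5B. AP2A2, a subunit of the endocytic adaptor complex, stood at 110.2 ± 6.28 CPM in WT and 104 ± 1.81 CPM in LSD1 KO libraries. TOLLIP, an adaptor in Toll-like receptor signalling, stood at 34.2 ± 6.86 and 29.1 ± 3.06 CPM.

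On chromosome 7, MUC3A, a membrane mucin of enterocytes, had 757, 845 and 1051 counts in the WT and 1193, 1022 and 1149 in LSD1 KO libraries, or 32.1 ± 3.38 and 40.9 ± 4.53 CPM. Of its 31-base words 8.86% occur in another annotated gene. The lowest LSD1 KO library, at 35.7 CPM, lay below the highest WT library, at 36.01 CPM, and the log2 fold change of 0.38 (95% interval 0.016 to 0.74) had an unadjusted p of 0.0426 and a q of 0.999 by edgeR. With the replicate block its q was 0.181. MUC12 and MUC17 follow it, the first with 19 to 71 counts per library and the second at the floor, and then TRIM56, an antiviral ubiquitin ligase, at 64.4 ± 9.65 and 67.0 ± 7.16 CPM. ACHE, the acetylcholinesterase gene before MUC3A, stood at 5.55 ± 1.36 and 5.11 ± 0.560 CPM.

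On chromosome 3, MUC20 and MUC4 lay between APOD, a lipid carrier with 2 to 8 counts per library, and TNK2, a kinase at 55.8 ± 10.8 CPM in WT and 59.8 ± 13.5 CPM in LSD1 KO libraries. No tested neighbour in these 3 clusters passed the test in the fits without or with the block.

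**Figure D4:**
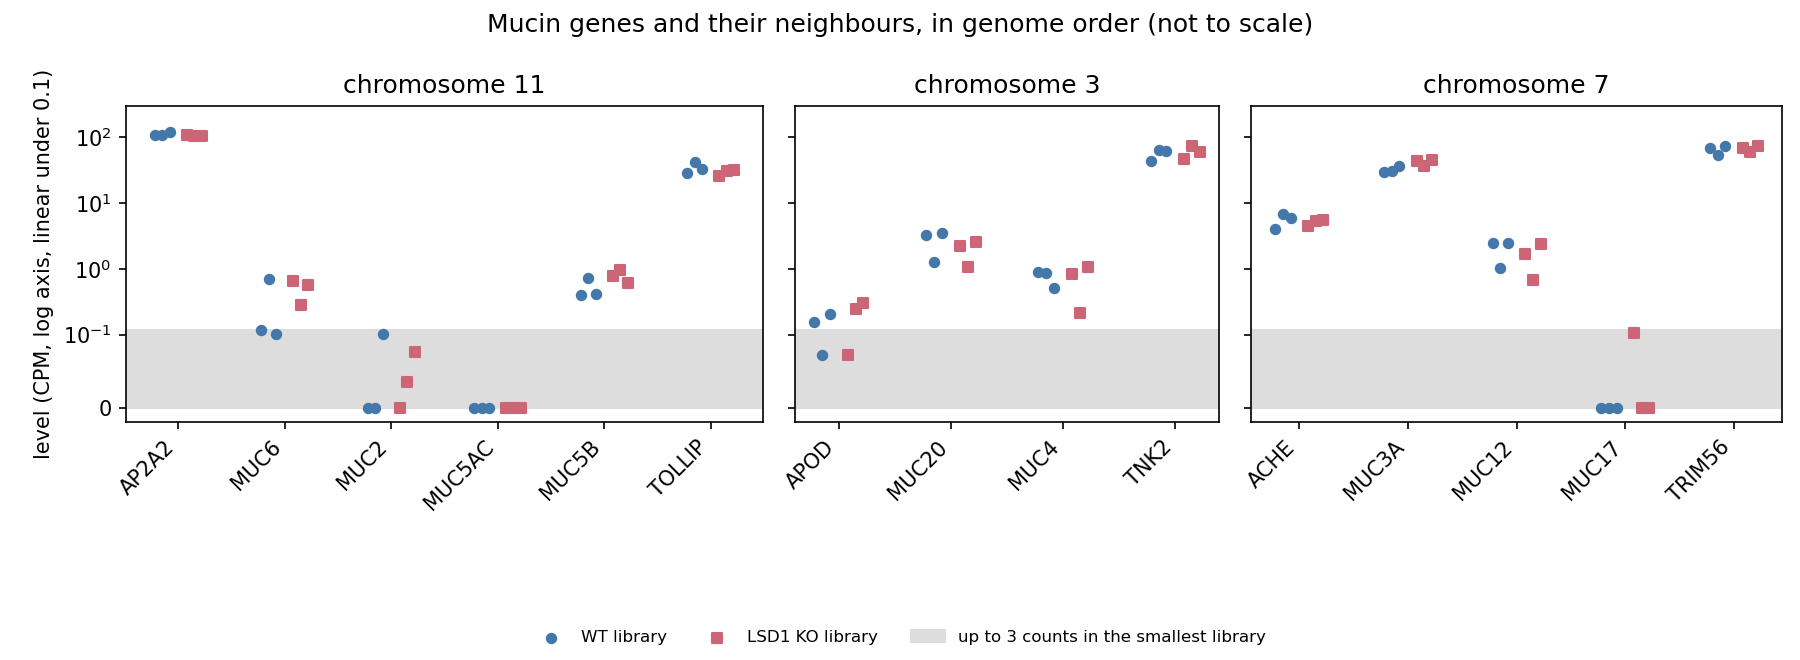
CPM of the mucin genes of chromosomes 11, 3 and 7 and of their nearest protein-coding neighbours, one point per library, in genome order and not to scale. The axis is logarithmic above 0.1 CPM and linear below, and the grey band marks levels up to that of 3 counts in the smallest library. MUC2, MUC5AC and MUC17 do not rise above the band, whereas AP2A2, TOLLIP, TNK2 and TRIM56 at the ends of the clusters lie above it in all 6 libraries.

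The rest of the mucus pathway was read from lists of 119 further genes, of which 118 were in the table, 25 were at or under the floor in all libraries and 76 were tested. None was called by edgeR without the block, with 8 of 76 at an unadjusted p under 0.05, beside 3.12% of all genes. With the block 2 of 76 were called (2.63%, beside 1.6% of all genes), and DESeq2 called 2 of the 96 that it gave a q (beside 0.37% of all genes with a q). Their median log2 fold change was 0.0065, and 41 of the 76 estimates were above 0.

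Of 15 other mucins and mucin-like genes 6 were at the floor, among them MUC7, MUC15 and MUC21, and 0 of 7 tested were called in any of the 3 fits. The highest mean CPM were those of the sialomucins CD164, at 249.04 ± 20.5 CPM in WT and 239 ± 4.30 CPM in LSD1 KO libraries, and PODXL, at 100.2 ± 19.2 and 104 ± 21.0 CPM. The trefoil factors TFF1 and TFF2, which gastric mucous cells secrete, had 0 counts in every library, so no trefoil factor was detected above the floor.

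Of 33 goblet cell secretory products and parts of their secretion machinery, 32 were in the table, 11 were at the floor and 15 were tested. AGR2, the disulphide isomerase needed to fold MUC2, had 1 count in WT library 2 and 0 elsewhere, CLCA1 and SPINK4 had 0 counts in every library, and ZG16, a lectin of colonic mucus, had at most 4. FCGBP, a mucus protein bound to MUC2, was detected in every library, with 377, 213 and 315 counts in the WT and 309, 124 and 260 in LSD1 KO libraries. The highest mean CPM of the list was that of SLC12A2, a chloride importer (102 ± 13.7 and 92.2 ± 7.08 CPM). TSPAN1, a tetraspanin of epithelial membranes, rose with the block and by DESeq2 and did not pass in the edgeR fit of 17672 genes without the block. It had 65, 69 and 78 counts in the WT and 140, 172 and 168 in LSD1 KO libraries, without overlap, as in 7.72% of all genes tested. The log2 fold change of TSPAN1 was 1.21 (q = 0.497 without the block, q = 0.0390 with it, q = 0.0267 by DESeq2).

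Of 21 transcription factors of the secretory lineage and its surroundings 15 were tested and 0 were called by edgeR. ATOH1, the factor that sets the secretory fate, had 4, 17 and 20 counts in the WT and 6, 23 and 9 in LSD1 KO libraries, and SPDEF, which drives goblet cell maturation, had between 1 and 13. SOX9 had the highest mean CPM, at 221 ± 40.9 and 223 ± 30.4 CPM. GFI1, a repressor that partners with LSD1, stood at 10.5 ± 1.54 and 11.2 ± 1.82 CPM. ELF3, an epithelial factor, had 632, 1385 and 1176 counts in the WT and 2751, 1634 and 3403 in LSD1 KO libraries, with a log2 fold change of 1.32 (q = 0.788 by edgeR, 0.117 with the block and 0.0357 by DESeq2).

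Of 48 glycosylation enzymes, listed mainly for building the O-linked sugar chains of mucins, 39 were tested and 3 were at the floor. The starting enzymes GALNT2 (103 ± 13.8 and 100.1 ± 18.6 CPM) and GALNT1 (88.2 ± 15.6 and 74.6 ± 10.5 CPM) had the highest mean CPM. FUT8, which adds core fucose to N-glycans, was the 1 of 39 called with the block, beside 1.6% of all genes (log2 fold change 0.56, q = 0.0960, against 0.999 without the block and above 0.999 by DESeq2). B3GNT6, which makes the core structure typical of colonic mucin, was at the floor.

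**Figure D5:**
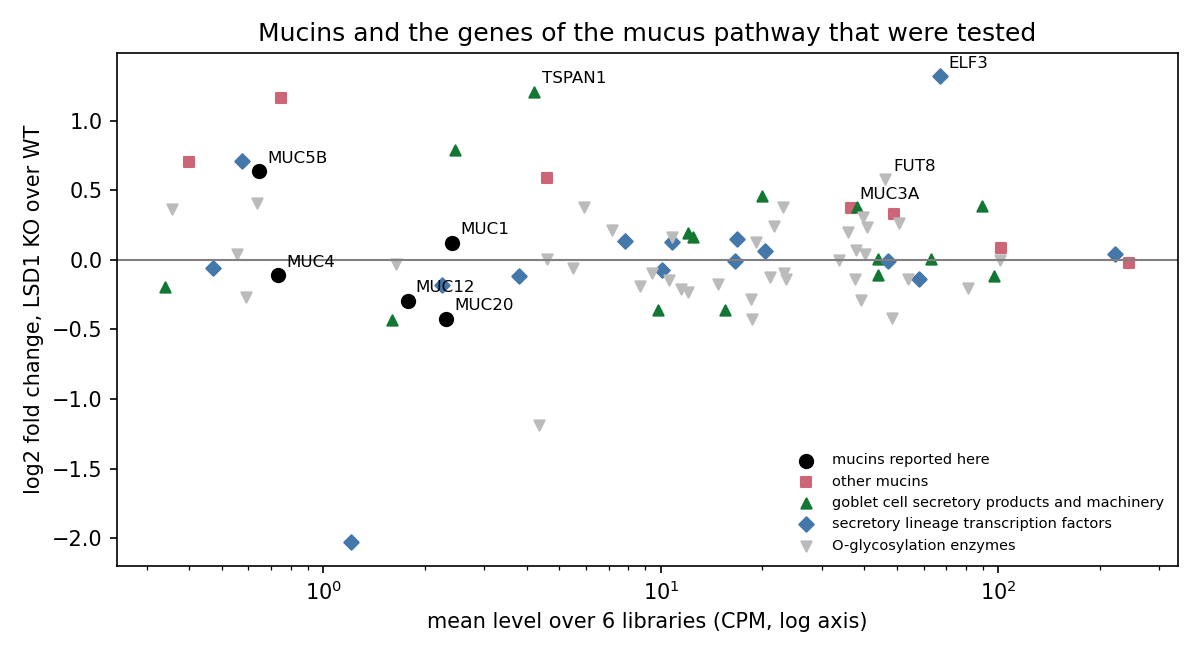
Log2 fold change of LSD1 KO over WT (edgeR without block) against the mean CPM of 6 libraries on a log axis, for the 5 mucins tested (black) and the 76 tested genes of the mucus pathway lists. The 5 mucins lie between -0.42 and 0.64 at means under 2.5 CPM, and TSPAN1, ELF3, FUT8 and MUC3A are named.

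Among the lists of markers of other cell types, the summed levels of 2 did not overlap between the genotypes. As single genes, 7.72% of all genes tested had groups that did not overlap. All 6 libraries were of the HCT116 line, so the 2 sums describe RNA of that line and are not counts of fibroblasts or leukocytes. The 6 fibroblast markers summed to between 21.3 and 24.7 CPM in WT and between 30.2 and 34.5 CPM in LSD1 KO libraries. That sum rested on COL1A1 (log2 fold change 0.52, q = 0.999 by edgeR, 0.0628 with the block and above 0.999 by DESeq2), with COL1A2, COL3A1, DCN, LUM and PDGFRA at or under the floor. The 6 leukocyte markers summed to between 17.9 and 19.7 CPM in WT and between 22.2 and 34.8 CPM in LSD1 KO libraries, mostly the lysosomal gene CD68 (q = 0.993 by edgeR, 0.132 with the block and 0.563 by DESeq2), with PTPRC and CD3E at or under the floor. The part of COL1A1 and CD68 in the mucin levels was not tested. Of 12 enterocyte markers 6 were at the floor and CA2 alone was tested. Of 7 gastric and airway mucous cell markers 6 were at the floor. Enteroendocrine (5 of 8), Paneth (4 of 5) tuft cell (2 of 5) and endothelial markers (1 of 4) were also at the floor in part, and none of those tested was called.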

How the data were processed

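The data were 6 polyA RNA-seq libraries of HCT116 cells, 3 WT and 3 LSD1 KO. Read pairs were checked by the authors with FastQC, trimmed with Trimmomatic 0.39, quantified with Salmon (1.4.0 per the submitters' processing notes) against GENCODE transcripts on GRCh38, and expected counts per gene were deposited as unscaled whole numbers. How transcripts were summed to genes is not given in the sources used here. The library kit is not described as stranded, so reads of a gene and its antisense partner cannot be told apart. Estimated counts of genes that share sequence were split by Salmon.

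Symbols were matched for 58395 of 60240 genes. Counts were compared in edgeR 4.0.16 (R 4.3.3) by its quasi-likelihood test after filterByExpr and TMM scaling, with p adjusted by Benjamini-Hochberg (q) over 17672 genes, and called at q under 0.1, the threshold of the study. DESeq2 1.42.0, other size factors and filters, a replicate block and leaving out libraries were alternatives. Same-numbered WT and LSD1 KO libraries deviated together (r = 0.553, 0.553 and 0.404 across 17672 genes, against -0.516 to 0.0454 for other numbers), so the replicate numbers were taken to pair the libraries, a pairing seen in the data and not stated in the labels. CPM is the count over the library total. Depth ranged from 25379279 to 29186963 counts. A floor of 3 counts per library was used and genes at it were given no fold change. Positions and promoter windows came from RefSeq (GRCh38.p14), and transcript lengths, exon overlap and shared 31-base words from GENCODE v44lift37, without its coordinates. The steps were also run on simulated data, of which no result is given here. Python 3.11.15 and matplotlib 3.10.9 drew the figures.

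The 10 genes and the gene lists were chosen with earlier results of these data known. Named besides the 10 genes and KDM1A were, in each list, genes with q under 0.1 without or with the block and the 2 tested genes with the highest mean CPM, the neighbours in the 3 mucin clusters, and the 3 genes most like MUC1 and MUC5B over 6 libraries. Others, among them ELF3, AGR2, CLCA1, SPINK4, ZG16, FCGBP, ATOH1, SPDEF, GFI1, B3GNT6, TFF1, TFF2, VIL1, HNF4A, MUCL3 and MUC20-OT1, were named after their values were seen. Some genes that the rule names are not reported here.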

Additional observations from a re-analysis of the deposited data

How the results depend on the processing

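Of the 10 genes, each alternative tested 4, 5 or 9, and 0 were called in any of them. MUC5B stayed above 0 (0.43 to 1.02, log2) and MUC20 below 0 (-0.75 to -0.16) in all 17 alternatives. Leaving out 1 library moved MUC1 between -0.25 and 0.32, MUC4 between -0.54 and 0.30, and MUC12 between -0.70 and 0.041. With the replicate block and without replicate 1 of both groups MUC1 was -0.13, and without replicate 2 of both groups MUC4 was 0.47 with the block and, in an alternative chosen after seeing the data, 0.45 without it. A filter of 10 counts in every library left no value for MUC4. Over all genes, where the fit without a block called 1, the replicate block called 282, DESeq2 95 and the test of every gene with counts 114; leaving out 1 library gave between 1 and 26, the latter without LSD1 KO replicate 2. The paired fit called 428 of 17835, 1055 of 18043 and 198 of 17686 genes without replicate 1, 2 or 3 of both groups. After seeing the data, 2 more were added: without replicate 2 of both groups and without the block 22 genes passed, and the block over every gene with counts called 1285 of 33857. Of the mucus pathway lists (0 called), 1 of 104 passed with every gene tested, 2 of 96 with a q by DESeq2, 2 of 76 with the replicate block, 2, 15 and 3 of 76 with the block and without replicate 1, 2 or 3, and 14 of 104 with the block over every gene. The cause of these differences was not tested. The 5 tested mucins rest on 6 to 102 counts per library, and differences at or under the floor of 3 counts could not be resolved.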

Other observations

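HNF4A, a nuclear receptor that sets the identity of intestinal epithelium, was singled out after its values were seen, as the gene of the mucus pathway lists with the lowest edgeR estimate among the 76 tested. It had 49, 49 and 62 counts in the WT and 16, 2 and 20 in LSD1 KO libraries, without overlap between the genotypes, a log2 fold change of -2.03 (q = 0.999 by edgeR, 0.136 with the replicate block and 0.219 by DESeq2). MUCL3, also named after its values were seen, had the highest edgeR estimate of the 7 other mucins and mucin-like genes tested. It had 16, 3 and 20 counts in the WT and 33, 27 and 25 in LSD1 KO libraries, without overlap (log2 fold change 1.16, q = 0.999 by edgeR, 0.344 with the block and above 0.999 by DESeq2). The groups did not overlap in 7.72% of all genes tested, and neither HNF4A nor MUCL3 passed the threshold.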
